A study of Mus musculus with 8 samples.

Results

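Some H3K36me3 peaks of mouse embryonic stem cells lay across the gap between neighbouring genes and shared bases with both. Bridging peaks are here the control peaks on chromosomes 1 to 19 that were 10 kb or shorter and shared at least 1 base with at least 2 protein-coding genes, each over 5 kb long, whose spans did not overlap each other. There were 213 of them among 28972 control peaks of that length on these chromosomes, or 0.735%, and among 30634 control peaks in all. They joined 213 pairs made of 425 genes, since Secisbp2 stood in 2 pairs. All but 1 of the peaks touched exactly 2 genes over 5 kb.

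The peaks come from H3K36me3 ChIP-seq of mouse embryonic stem cells in which knockdown of Setd2 could be induced with doxycycline. Knockdown cells received doxycycline at 1 µg/ml for 4 days, and control cells received none. Treated cells carry the genotype label Setd2 knockdown, and untreated cells the label control. The labels' growth protocol, the same for every sample, describes the cells as carrying the inducible knockdown, while the header of the control table bears the name shCont. Whether control cells were the uninduced knockdown line or a separate control line is therefore not settled by the labels, and a difference between the conditions could include one between lines. All cells grew without feeders as spheres on gelatin, in serum-free 2i medium with the MEK inhibitor PD0325901 (1 µM), the GSK3 inhibitor CHIR99021 (3 µM) and leukaemia inhibitory factor (1000 U/ml). The 8 libraries form 4 groups of 2, H3K36me3 ChIP and input for each condition, and the labels do not say whether replicates were separate cultures or how many clones the line holds. The authors merged replicates before calling peaks, so that each condition has a single list, and neither a replicate spread nor a test between conditions can be given. The merged ChIP libraries kept 29416169 tags in knockdown and 36244210 in control after duplicate removal, and the caller gave 3040 peaks in knockdown and 30634 in control. In control, 12 of 15 naive embryonic stem cell markers were touched by a peak, as were 2 of 10 fibroblast and 2 of 12 differentiated-lineage markers. Nr0b1, Utf1 and Dppa5a were the naive markers without one. For comparison, a control peak touched 54.6% of all 16092 protein-coding genes over 5 kb. The marker counts were not limited by gene length, and their difference from that share was not tested. Intervals in parentheses after shares are exact Clopper-Pearson 95% intervals, which cover counting error only.

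H3K36me3 is trimethylation of lysine 36 of histone H3. In mammals Setd2 is the main enzyme that lays it down, and it does so while bound to the elongating form of RNA polymerase II. The mark is therefore typical of transcribed gene bodies, is low at active promoters and is richest toward 3′ ends. Polymerase continues beyond the poly(A) site for some distance before it is released, a step that depends on cleavage and polyadenylation factors and on the exonuclease Xrn2. Neighbouring genes can lie closer together than that. Pairs are called convergent where both 3′ ends face the gap, divergent where both 5′ ends face it, and same-direction where the 3′ end of an upstream gene faces the 5′ end of a downstream gene.

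A bridging peak in a same-direction pair lay over the 5′ end of a gene, where H3K36me3 is usually low, so the promoters at these ends are shown first. RefSeq's promoter table (build GRCm38.p6) gives 1 transcript start per gene, which can lie inside the outermost gene span, and it matched 351 of the 425 genes. Starts of 21 genes lay under a bridging peak, 17 of them downstream genes of same-direction pairs. In the other 12 same-direction pairs the listed start of the downstream gene lay outside the peak. The 250 bases before 5 of these starts are printed 5′ to 3′, with each CpG dinucleotide in capitals, because their CpG content ran from 0 to 22. All 5 stretches lay wholly under the bridging peak. Slc25a22, a mitochondrial glutamate carrier gene, is at chr7:141437875-141438124 on the minus strand and had 4 CpGs. Gzmm, which encodes granzyme M of cytotoxic lymphocytes, is at chr10:79688770-79689019 on the plus strand and had 3. Zc2hc1b, a zinc finger gene, is at chr10:13178024-13178273 on the minus strand and had 0. Grin2c, an NMDA receptor subunit gene of neurons, is at chr11:115267244-115267493 on the minus strand and had 15. Secisbp2, which encodes a selenoprotein translation factor, is at chr13:51651458-51651707 on the plus strand and had 22.
Slc25a22: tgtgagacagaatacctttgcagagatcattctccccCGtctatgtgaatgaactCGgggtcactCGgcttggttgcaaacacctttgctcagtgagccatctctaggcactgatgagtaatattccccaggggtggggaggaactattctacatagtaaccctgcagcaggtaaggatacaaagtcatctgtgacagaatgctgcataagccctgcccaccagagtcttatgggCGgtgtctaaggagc
Gzmm: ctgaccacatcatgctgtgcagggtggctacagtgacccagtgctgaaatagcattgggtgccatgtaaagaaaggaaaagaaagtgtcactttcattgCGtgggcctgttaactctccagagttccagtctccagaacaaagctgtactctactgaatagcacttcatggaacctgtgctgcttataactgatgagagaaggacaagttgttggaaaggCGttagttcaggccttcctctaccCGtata
Zc2hc1b: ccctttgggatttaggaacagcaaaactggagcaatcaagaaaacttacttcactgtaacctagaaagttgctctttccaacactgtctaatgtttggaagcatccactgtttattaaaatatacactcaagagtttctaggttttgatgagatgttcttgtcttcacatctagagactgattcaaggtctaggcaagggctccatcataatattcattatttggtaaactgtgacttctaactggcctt
Grin2c: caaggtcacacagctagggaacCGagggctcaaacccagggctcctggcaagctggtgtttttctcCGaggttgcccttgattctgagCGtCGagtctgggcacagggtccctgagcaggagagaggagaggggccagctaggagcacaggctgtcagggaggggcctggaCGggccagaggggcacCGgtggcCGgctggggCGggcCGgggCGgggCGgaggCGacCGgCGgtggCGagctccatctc
Secisbp2: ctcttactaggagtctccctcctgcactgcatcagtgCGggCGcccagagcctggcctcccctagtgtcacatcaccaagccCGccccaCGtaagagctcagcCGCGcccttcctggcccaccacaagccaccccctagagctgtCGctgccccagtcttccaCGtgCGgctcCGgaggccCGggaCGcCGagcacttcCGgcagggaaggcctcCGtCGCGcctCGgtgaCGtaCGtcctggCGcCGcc

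The promoters under bridging peaks were poor in CpG. The 21 had a median of 4 CpGs (quartiles 3 and 5) in the 250 bases, against 15 (9 and 22) for the 331 promoters of bridged genes that did not lie under the peak and 10 (3 and 19) over all 16456 protein-coding promoters of chromosomes 1 to 19 in the table. Secisbp2 enters both of the first groups, since only 1 of its bridging peaks covers its start. These 2 groups also differ in orientation. Of 250 starts in convergent pairs, which face away from the gap, 1 lay under the peak, whereas 17 of the 21 belonged to same-direction pairs. The part of orientation in the CpG contrast was not tested. At least 10 CpGs were present in 2 of the 21 (9.52%), namely Grin2c and Secisbp2. The shares were 74.3% for promoters of bridged genes outside the peak and 51.8% for all promoters. Over all 29 downstream genes of same-direction pairs, with the start under the peak or not, 8 had at least 10 (27.6%). The GC-box core GGGCGG, which itself holds a CpG, was found on either strand in 4 of the 21 and in 43.6% of all promoters, and the printed Slc25a22, Grin2c and Secisbp2 windows hold it. CCAAT was found in 33.3% and 36.3%, with Gzmm among the holders. TATAAA was found in 14.3% and 12.5%, and in none of the 5 printed windows. CCGGAAG, an Ets-type motif that also contains a CpG, was found in 4.76% and 9.39%, with Secisbp2 as the 1 holder under a bridging peak.

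A difference in CpG also appeared between close same-direction pairs that were bridged and those that were not. The bridged promoters in it are in part those counted above. The set was limited to pairs with a gap under 2000 bp, a control peak on both genes and a promoter sequence for the downstream gene. The downstream promoter had a median of 3.5 CpGs in the 26 pairs bridged by a peak of 10 kb or less and 2 in the 11 bridged by a longer peak, against 14 in the 225 pairs whose gap was not spanned. At least 10 CpGs were present in 6 of 26 (23.1%, 8.97 to 43.6), in 4 of 11 (36.4%, 10.9 to 69.2) and in 175 of 225 (77.8%, 71.8 to 83.0). The interval of the short-bridged pairs lay wholly below that of the pairs not spanned. A bridging peak itself marks the downstream gene, whereas a pair not spanned enters only if that gene has a peak of its own. Over all 29 same-direction pairs with a short bridge, 16 downstream genes had no other control-covered base. The contrast therefore sets unlike genes side by side, and the part of this filter in it was not tested. It was chosen after other values had been seen, and the pairs were not matched on gap within the limit. The part of transcript level in it was not tested.

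Bridging peaks were long and densely tagged for control peaks. Their median length was 5357 bp (quartiles 3384 and 7352) against 2450 bp (1723 and 3913) for the 23287 control peaks that touched 1 gene over 5 kb. A peak that must reach 2 genes has to be long enough to cross the gap, so the length follows partly from the rule. They held a median of 55.4 tags per kb of peak against 45.9. The authors' own peak values, used here only to describe and rank peaks within a list, were also higher. The median caller score, which grows as the caller's p-value shrinks, was 452 against 137. The median fold over local background was 5.25 against 4.30. The 1907 one-gene peaks that crossed only the 3′ end of their gene came nearer to the bridging peaks. Their medians were 4047 bp, 52.3 tags per kb, a score of 305 and a fold of 4.93.

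The gaps were short. Their median was 558 bp (quartiles 193 and 1115), with a range of 0 to 6042 bp. In 54 pairs the gap was under 200 bp, in 151 under 1000 bp and in 17 over 2000 bp. The gap made up a median of 10.3% of the peak, and it exceeded 50% of the peak in 10 peaks, Pgam1 with Exosc1 and Mrpl18 with Acat3 among them. In the other 203 at least as much of the peak lay in the genes as in the gap. The larger genic share of a peak had a median of 3396 bp and the smaller 746 bp, and the smaller was under 200 bp in 28 peaks. No gene lay wholly inside its bridging peak. The summit, the position of highest tag pileup, lay in 1 of the genes in 171 peaks and in the gap in 42.

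The narrowest gaps were those of genes that abut. Coro6 and Ankrd13b, which encode a coronin and an ankyrin repeat protein, were joined on chromosome 11 with 0 bp between them by a peak of 1580 bp and 69 tags. Ints14, of the Integrator complex that cleaves small nuclear RNAs, and Hacd3, a fatty acid elongation gene, stood 1 bp apart under a peak of 5857 bp. Nelfe, a subunit of the negative elongation factor NELF, and Cfb, complement factor B, were also 1 bp apart, under a peak of 5612 bp that covered 4537 bp of Nelfe and 1074 bp of Cfb. Rtbdn and Rnaseh2a, the catalytic subunit gene of ribonuclease H2, stood 3 bp apart.

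The widest gap was a special case. The 9444 bp peak on chromosome 17 between Mrpl18, a mitochondrial ribosomal protein gene, and Acat3, an acetyl-CoA acetyltransferase gene, spanned 6042 bp that the chaperonin gene Tcp1 fills. Tcp1 overlapped both neighbours and was the third gene of the 1 peak that touched 3. The other gaps with a further protein-coding gene held Srsf2 and Mrpl43. Next in width came the 4312 bp between Pgam1, a glycolytic mutase gene, and Exosc1, an RNA exosome gene, under a peak of 6579 bp with 293 bp in Pgam1 and 1974 bp in Exosc1. Gid8 and Slc17a9 stood 2976 bp apart, Ncbp1 and Xpa 2816 bp, and Ankrd27 and Pdcd5 2747 bp. Ncbp1 encodes the larger nuclear cap-binding subunit and Xpa a nucleotide excision repair factor.

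Most bridged pairs were convergent. Strand was known for both genes in 154 pairs, of which 125 were convergent (81.2%, 74.1 to 87.0), 29 same-direction (18.8%, 13.0 to 25.9) and 0 divergent, which allows a share of up to 2.37%. Among the 59 pairs with a strand missing, 44 had 1 gene of known strand, and in 37 of these (84.1%) its 3′ end faced the gap. If no pair of unknown orientation or every one of them were convergent, the convergent share over all 213 pairs would be 58.7% or 86.4%.

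**Figure D1:**
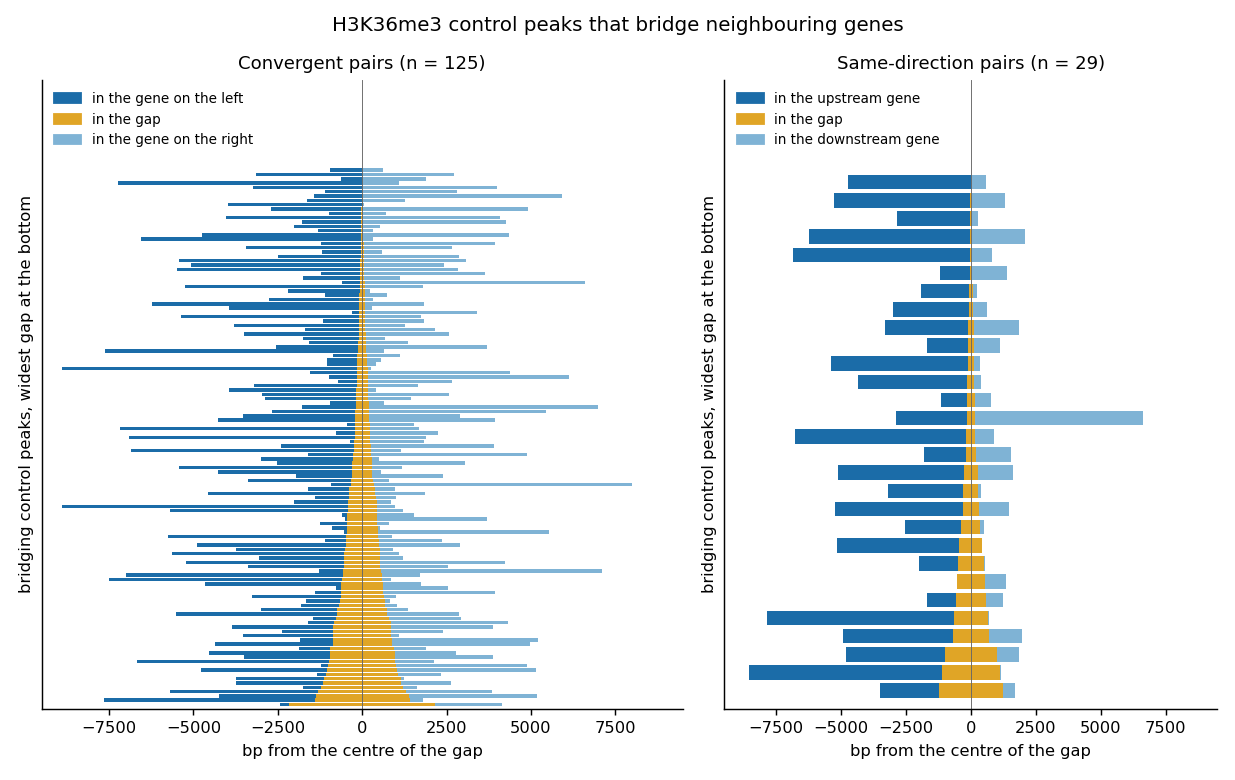
Each row is 1 bridging control peak, drawn in bp from the centre of the gap, for the 125 convergent and 29 same-direction pairs, with its part in each gene in blue and its part in the gap in gold. In same-direction pairs the upstream gene held the larger part in 26 of 29 peaks, while in convergent pairs either side could.

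The close pairs of the genome give the background for these counts. On chromosomes 1 to 19 there were 5357 neighbouring pairs of non-overlapping protein-coding genes over 5 kb with a gap of 10 kb or less, and 3.98% of them were bridged by a control peak of 10 kb or less. The share was 11.4% of 1099 convergent pairs (125 pairs, 9.56 to 13.4), 1.55% of 1869 same-direction pairs (29 pairs, 1.04 to 2.22) and 0% of 753 divergent pairs (0 pairs, up to 0.489). These 3 intervals did not overlap. Peaks of any length spanned 199 convergent (18.1%), 41 same-direction (2.19%) and 0 divergent pairs. Of the 753 divergent pairs, 415 had a control peak on both genes, and in none of these did a single peak span the gap.

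Convergent pairs had the highest share in each bin of gap size below 5000 bp. Among convergent pairs less than 200 bp apart, 65.9% (55.0 to 75.7) of 88 were spanned by a control peak of any length, against 20.9% (11.9 to 32.6) of 67 same-direction pairs and 0% of 307 divergent pairs (up to 1.19). At gaps of 1000 to 1999 bp the shares were 23.7% (17.7 to 30.7) of 177 convergent and 2.80% (1.04 to 6.0) of 214 same-direction pairs, and 0% of 30 divergent pairs (up to 11.6). Beyond 5000 bp 1 of 317 convergent pairs was spanned and none of 776 same-direction or 194 divergent pairs. From 500 bp up the intervals of the divergent pairs included the same-direction shares. Restricting to pairs with a control peak on both genes raised the convergent share under 200 bp to 86.6% of 67 (76.0 to 93.7) and the same-direction share to 34.1% of 41 (20.1 to 50.6). A bridging peak itself marks both genes, so that restriction favours bridged pairs.

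**Figure D2:**
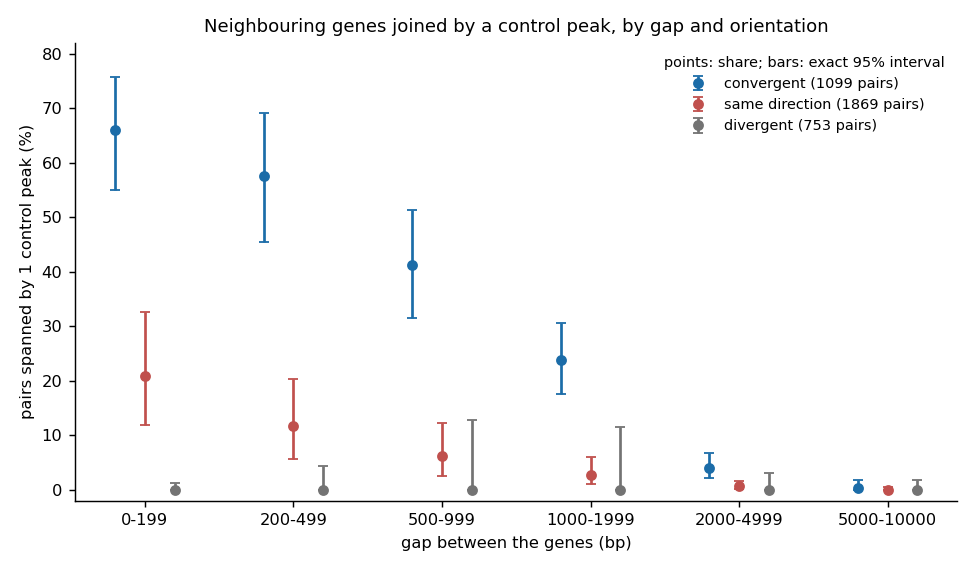
The plot gives the percent of close gene pairs spanned by a single control peak of any length, by gap in bp, for convergent, same-direction and divergent pairs, with exact 95% intervals as bars. Under 200 bp the shares were 65.9%, 20.9% and 0%, and they fell as the gap widened, with divergent pairs at 0 in each bin.

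Peaks that crossed a gene end without reaching another gene over 5 kb showed the same preference for 3′ ends. Among control peaks touching 1 gene over 5 kb, a 3′ end was crossed 1909 times, with a median reach of 898 bp past it (quartiles 428 and 1477), and a 5′ end 53 times, with a median reach of 908 bp. The median bridged gap of 558 bp lay below that median 3′ reach and within its quartiles.

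In same-direction pairs most of the peak lay in the upstream gene. The upstream gene held a median of 3195 bp of the peak and the downstream gene 641 bp, and the upstream part was larger in 26 of 29 peaks. The summit lay in the upstream gene in 24, in the gap in 3 and in the downstream gene in 2. In control, peaks covered a median of 58.9% of the upstream and 18.2% of the downstream gene, and the upstream gene was the more covered in 22 of 29 pairs. In 16 pairs the downstream gene had no control-covered base outside the bridging peak.

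Single same-direction pairs show how unequal the parts could be. Rad51ap1, a homologous recombination gene on chromosome 6, held 7183 bp of its 8561 bp peak, against 47 bp in Dyrk4, a kinase gene that was covered over only 0.102% of its length. Drg2, a GTPase gene covered over 91.3%, shared its 3569 bp peak with 91 bp of Myo15, the myosin of inner-ear hair cells, covered over 0.154%. Cdc34, a ubiquitin-conjugating enzyme gene, held 4928 bp of a 6699 bp peak with 459 tags, and Gzmm 1150 bp, with the printed Gzmm promoter in the 621 bp gap between them. Pidd1, a death-domain gene, held 5280 bp of the same-direction peak with the most tags per kb (73.5), against 225 bp in Slc25a22. Slc25a22 differed from the others in being covered over 57.1% of its own length, by 4419 bp outside the bridging peak too.

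The 3 exceptions, in which the downstream gene held more of the peak, were Rpl18 with Fam83e, Mrps15 with Oscp1 and Exoc6 with Cyp26c1. The ribosomal protein gene Rpl18 held 2712 bp and Fam83e 6456 bp of a 9503 bp peak. Mrps15 held 1148 bp and Oscp1 1329 bp. The retinoic acid hydroxylase gene Cyp26c1 held 840 bp and Exoc6, an exocyst gene, 9 bp of a peak with 78 tags. Secisbp2 stood out for another reason: it was covered over 88.4% of its length, and only its first 48 bp lay under the peak shared with the cell cycle gene Cks2, while its 3′ end was joined to Sema4d by a second bridging peak across 1484 bp.

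Convergent peaks could lean to either gene. In 68 of 125 the larger part was at least 3 times the smaller, and in 87 the summit lay in the gene with the larger part. Psmc5, an ATPase gene of the proteasome base, and Smarcd2, a BAF remodelling complex gene, shared a 7628 bp peak on chromosome 11 with 2677 bp and 4893 bp across a gap of 58 bp. Neither gene had another control-covered base. Ggn, a germ cell gene, and Psmd8, a proteasome lid gene, divided 6256 bp into 2441 bp and 3567 bp, at 76.9 tags per kb. By contrast Git1, a GTPase-activating scaffold gene, held 8747 bp of a 9185 bp peak and Trp53i13 114 bp.

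The 10 highest caller scores among bridging peaks without knockdown overlap ran from 1125 to 1665. The first was the peak of Scrib and Puf60 on chromosome 15, with 723 tags over 9671 bp, of which 9240 bp lay in the splicing factor gene Puf60 and 34 bp in the cell polarity gene Scrib, although Scrib was covered over 92.5% of its length. Next came the peak of Dhx58, a RIG-I-like receptor gene, and Kat2a, which encodes the histone acetyltransferase Gcn5. It held 583 tags, 6723 bp of Kat2a and 155 bp of Dhx58, and at 79.3 tags per kb it was the densest named pair of unknown orientation. The others joined Psmc5 with Smarcd2, Rundc3a with the mitochondrial carrier gene Slc25a39, and Bap1, a histone H2A deubiquitinase gene, with the axonemal dynein gene Dnah1. They also joined the 2-oxoglutarate dehydrogenase gene Dlst with Rps6kl1, Myg1 with the nucleoporin gene Aaas, Macrod1 with the deubiquitinase gene Otub1, Ggn with Psmd8 and Git1 with Trp53i13. Bap1 was covered over 81.2% of its length and Dnah1 over 2.25%, whereas Myg1 and Aaas were covered over 83.8% and 74.2%.

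Coverage of the pairs as wholes was unequal in most cases. Sorting both genes of each pair by coverage sets the medians below apart by construction. Other close pairs were not sorted in this way for comparison. The more covered gene of a pair had a median of 60.3% of its length under control peaks (quartiles 44.0 and 74.6) and the less covered gene 15.1% (5.39 and 33.2). Both genes were covered over at least 50% in 28 pairs. The less covered gene stayed under 10% in 82 pairs, and the difference exceeded 50 percentage points in 67. Pairs in which both genes were highly covered, picked after their values were seen, were Dnaja1 with Smu1 (87.9% and 84.9% for the more and the less covered gene) and Smcr8 with Shmt1 (94.2% and 79.4%). In knockdown the median was 0% for both the more and the less covered gene.

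**Figure D3:**
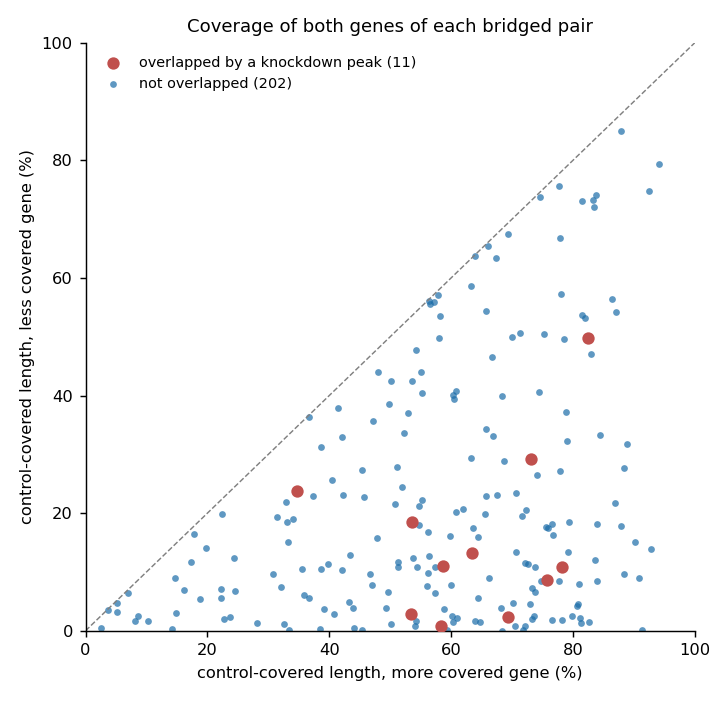
Each point is 1 of the 213 bridged pairs, with the percent of length under control peaks of the more covered gene on the horizontal axis and of the less covered gene on the vertical axis. Red points are the 11 pairs whose bridging peak was overlapped by a knockdown peak. The genes of each pair are sorted by coverage, so no point can lie above the diagonal. Most points lie far below it, with medians of 60.3% and 15.1%.

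In 93 pairs (43.7%, 36.9 to 50.6) exactly 1 gene owed all of its control coverage to the bridging peak. In 81 pairs both genes were also covered elsewhere, and in 39 neither was. The 93 genes had a median of 1960 bp under the bridging peak (47 to 9240), and their gap-facing end was the 3′ end in 63, the 5′ end in 10 and of unknown strand in 20. The partner held more of the peak in 38 of the 93. The gene covered by the bridge alone was the less covered of the pair in 63 and the more covered in 30, such as Otub1 at 80.8% beside Macrod1 at 4.61% and Mcam at 92.9% beside Cbl at 13.9%. Examples among the 63, picked after their values were seen, follow. Cd37, a leukocyte tetraspanin gene, was covered over 4.15% beside the transcription factor gene Tead2 at 80.6%. Epx, the eosinophil peroxidase gene, was covered over 17.9% beside the ciliary gene Mks1 at 87.8%. Nfe2, an erythroid and megakaryocyte transcription factor gene, was covered over 15.1% beside the RNA-binding protein gene Hnrnpa1 at 90.1%. A gene-level call of a control peak in Cd37, Epx or Nfe2 thus rested on the bridging peak alone. Transcript levels were not analysed here.

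After Setd2 knockdown almost no bridge was called. Only 1 of 3034 knockdown peaks of 10 kb or less on chromosomes 1 to 19 bridged a pair by the same rule (0.0330%), against 213 of 28972 control peaks (0.735%). With no length limit there were 2 in knockdown and 340 in control. Knockdown peaks were shorter on average: all 3040 covered 5.67 Mb, and the 30634 control peaks 110.7 Mb. A shorter peak reaches 2 genes less easily, and the shares were not matched on length. Among control peaks of 2000 bp or less, 15 bridged a pair, beside 8334 that touched 1 gene over 5 kb. The 1 short knockdown bridge joined Lig1, the replicative DNA ligase gene, to Pla2g4c, a phospholipase gene that follows it in the same direction 80 bp downstream on chromosome 7. It spanned 6187 bp with 271 tags (43.8 per kb), shared 4471 bp with Lig1 and 1636 bp with Pla2g4c, and lay wholly under control peaks. The control peak there exceeded 10 kb, so the pair is not among the 213. The knockdown bridge had a caller score of 463.91 and a fold of 5.36. The 11 knockdown peaks described below had lower values, with scores of 53.25 to 145.18 and folds of 3.19 to 4.32. Despite its score, the bridge had a caller FDR of 13.6%, which kept it out of the authors' list limited to an FDR of 5%.

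A knockdown peak overlapped 11 of the 213 bridging control peaks by at least 1 base (5.16%, 2.61 to 9.05), beside 5.8% of all control peaks of 10 kb or less. The share for bridging peaks thus lay near the background. It compared with 647 of 23287 peaks touching 1 gene over 5 kb (2.78%, 2.57 to 3.00) and with 1003 of 4962 touching none (20.2%, 19.1 to 21.4). The interval of the bridging peaks included 2.78% but not 20.2%. Peaks of 1 gene that crossed its 3′ end, which resemble bridging peaks in position, were overlapped in 115 of 1907 cases (6.03%, 5.0 to 7.19), and those that stayed inside the gene in 2.37%. The 51 that crossed a 5′ end were overlapped in 13 cases (25.5%, 14.3 to 39.6).

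Length has to be set beside these shares, because a longer peak is more easily overlapped. Among bridging peaks of 8000 to 10000 bp 6 of 42 were overlapped (14.3%, 5.43 to 28.5), against 11.7% (9.57 to 14) of one-gene peaks of that length. The shares were 3.70% (0.452 to 12.7) against 7.28% at 6000 to 8000 bp, 4.17% (0.509 to 14.3) against 4.55% at 4000 to 6000 bp, and 1.85% (0.0469 to 9.89) against 2.27% at 2000 to 4000 bp. In each of these bins the interval of the bridging peaks included the share of the one-gene peaks, so no difference was detectable at this number of peaks. By orientation 7 of 125 convergent, 1 of 29 same-direction and 3 of 59 pairs of unknown orientation were overlapped.

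**Figure D4:**
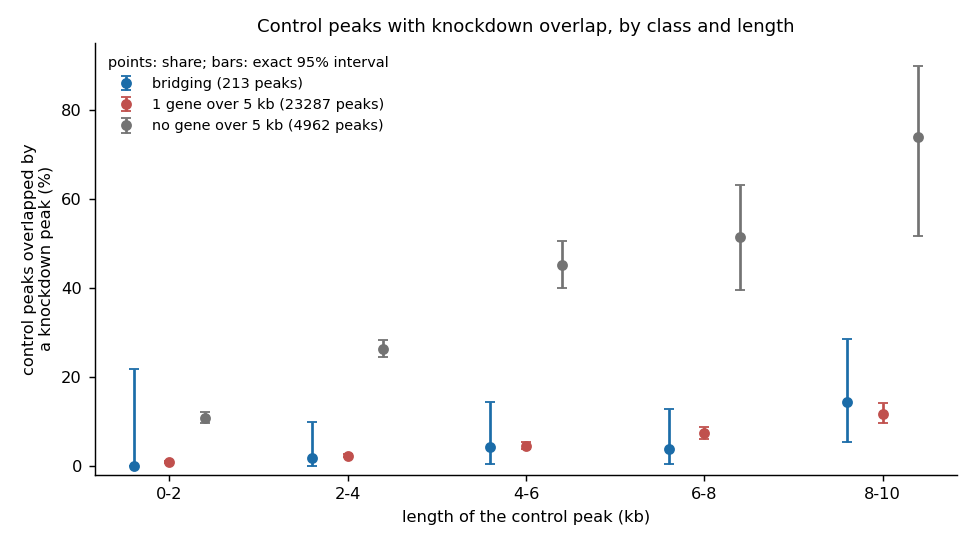
The plot gives the percent of control peaks overlapped by a knockdown peak, by peak length in kb, for bridging peaks, peaks touching 1 gene over 5 kb and peaks touching none, with exact 95% intervals as bars. Bridging peaks stayed near the one-gene peaks, at 14.3% against 11.7% in the longest bin, while peaks touching no such gene reached 73.9% there.

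None of the 11 knockdown peaks bridged its pair. Each touched 1 gene of the pair, 5 of them wholly inside it and 6 together with part of the gap, which at Mrpl18 and Acat3 is filled by Tcp1, and 10 of the 11 lay in the gene that was the more covered in control. They were 1109 to 3680 bp long (median 1788), against 3045 to 9444 bp (median 8094) for the control peaks they lay under, and covered 13.7% to 40.9% of these (median 23.5%). They held 30.8 to 40.1 tags per kb, against 52.4 to 75.2 in the control peaks, without adjustment for the unequal depth. The authors' folds were 3.19 to 4.32 in knockdown and 3.61 to 7.78 in control.

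The longest remnant was at Gid8, a gene of the CTLH ubiquitin ligase, and Slc17a9, a vesicular nucleotide transporter gene, on chromosome 2. The knockdown peak spanned 3680 bp with 144 tags, 1233 bp of it in Gid8 and 2447 bp in the gap, against a control peak of 8997 bp with 666 tags that reached 294 bp into Slc17a9. Zfp57, a KRAB zinc finger gene needed for imprint maintenance in embryonic stem cells, kept 2780 bp with 102 tags, against 8344 bp with 591 tags in control, where the peak crossed a 10 bp gap into 1091 bp of the myelin gene Mog. Zfp57 was covered over 29.1% in knockdown and 75.7% in control, and Mog over 0% and 8.62%. At both loci the knockdown peak did not reach the second gene.

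Slc66a2 and Kcng2 were the 1 overlapped pair in which both genes were covered in knockdown. Slc66a2 was covered over 17.9% in knockdown and 63.4% in control, and the potassium channel gene Kcng2 over 17.7% and 13.3%. The knockdown peak under the bridge, 2194 bp with 88 tags, touched Slc66a2 and 341 bp of the gap, so the knockdown coverage of Kcng2 lay elsewhere in that gene. The pair of zinc finger genes Zfp12 and Zfp316 kept 1879 bp in Zfp12 (13.7% in knockdown, 78.2% in control) and nothing in Zfp316 (0% and 10.8%). It was 1 of 2 bridged pairs whose symbols share a stem, the other being the folate receptor genes Folr2 and Folr1.

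The remaining overlapped pairs kept between 1109 and 1829 bp. Acadvl, a mitochondrial fatty acid oxidation gene, was covered over 26.0% in knockdown and 82.5% in control, and its convergent neighbour Dvl2, a Wnt pathway gene, over 0% and 49.8%. Psmg4, a proteasome assembly gene, was covered over 24.9% and 53.5%, Spag7 over 22.1% and 58.7%, Sptan1, the spectrin alpha chain gene, over 13.2% and 34.7%, and the chaperonin gene Cct5 over 11% and 69.3%. Their neighbours Slc22a23, Eno3, Wdr34 and Cmbl had no knockdown-covered base. Fdxr, a mitochondrial ferredoxin reductase gene, was covered over 9.70% in knockdown and 58.3% in control. Its knockdown peak reached 299 bp into the gap and stopped before Grin2c, which was covered over 0% in knockdown and 0.883% in control. At Mrpl18 and Acat3 the knockdown peak lay in 1567 bp of the stretch filled by Tcp1 and 262 bp of Acat3.

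**Figure D5:**
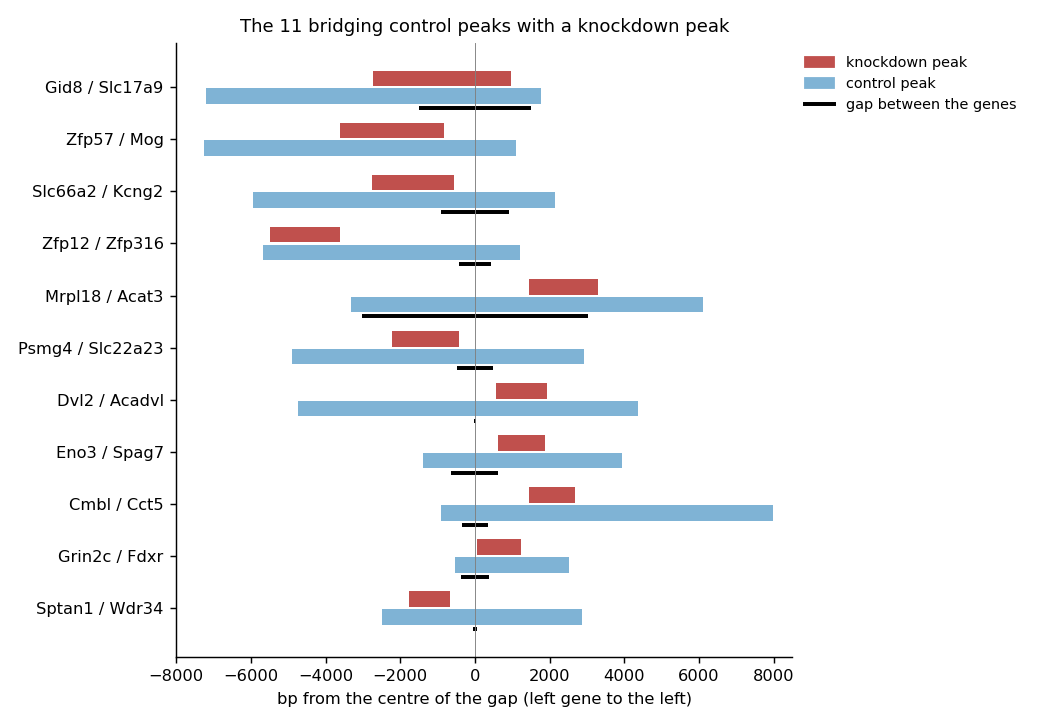
The 11 bridging control peaks overlapped by a knockdown peak are drawn in bp from the centre of the gap, with the knockdown peak in red above the control peak in blue and the gap as a black bar. Every knockdown peak is shorter than its control peak, and none reaches both genes.

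Counted by gene, 23 of the 425 bridged genes were touched by a knockdown peak anywhere (5.41%, 3.46 to 8.01), beside 11.2% of all 8792 protein-coding genes over 5 kb with a control peak. The other marked genes gave 958 of 8367 (11.4%, 10.8 to 12.2). Bridged genes were shorter, with a median length of 15602 bp against 27894 bp. The share was lower for bridged genes in each of 4 length classes: 4.26% against 7.77% at 5000 to 10000 bp, 5.08% against 10.3% at 10000 to 20000 bp, 5.21% against 11% at 20000 to 50000 bp and 8.57% against 14.6% above. Only over all lengths together did the intervals stay apart. Control coverage and tags per kb were not matched. Bridged genes were chosen through a peak of 10 kb or less, whereas the other marked genes included genes under longer peaks. Of the 127 longer control peaks that bridged a pair, 27 were overlapped by a knockdown peak. The part of coverage, tags per kb and peak length in the difference was not tested. Xpa was 1 gene with a knockdown peak outside its bridge, at 7.81% of its length.

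Factors that cleave, polyadenylate and terminate transcripts were nearly all touched by a control peak, 34 of 35. Limited to genes over 5 kb this was 29 of 30, beside 54.6% of all 16092 protein-coding genes of that length. Their median control coverage of 54.6% was the fourth lowest of the 13 gene lists, which ranged from 31.1% to 85.8%. Knockdown peaks touched 3 of them, among them Cstf1 and Ppp1r10, beside 11.2% of all marked genes over 5 kb. Cstf1, a cleavage stimulation factor gene, was covered over 11.3% in knockdown and 83.5% in control, and Ppp1r10, of the phosphatase complex of termination, over 27.1% and 54.8%. Xrn2, the exonuclease that follows polymerase past the poly(A) site, was covered over 0% and 48.1%. Members in bridged pairs were Scaf4, which in human cells suppresses early polyadenylation and was joined to the superoxide dismutase gene Sod1 across 2616 bp, and Ttf2, a termination factor gene joined to Trim45 across 1934 bp. Neither had a knockdown peak.

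Over all 13 gene lists, 18 of 441 genes over 5 kb, marked or not, stood in bridged pairs (4.08%, 2.44 to 6.37). The share was 2.64% of all genes of that length and 4.83% of the marked ones, both within that interval. None of the 18 had a knockdown peak, which at this number cannot be told from the 5.41% of all bridged genes. Among 34 proteasome genes, control peaks touched 33 and knockdown peaks 7. Of all protein-coding genes over 5 kb, control peaks touched 54.6%, and knockdown peaks touched 11.2% of those marked. The same shares apply to the list counts below, which were not limited by length. Psma7, Psmb3, Psmb7, Psmc5, Psmd8 and Psme3 stood in bridged pairs, the highest count among the 13 lists. They were 6 of the 31 over 5 kb (19.4%, 7.45 to 37.5). The share was 4.83% of all marked genes and 2.64% of all genes of that length, with no test of the difference. Psma7 and Psmb3 had 53.2% and 78.0% control coverage, and Psmb7 6.92%. Chromatin regulators contributed Ehmt2, an H3K9 methyltransferase gene, with Kat2a and Smarcd2, among 45 genes of which 41 had a control peak. The ends of Brca2, the homologous recombination gene, and N4bp2l1 shared an 8394 bp peak with 4780 bp and 2119 bp, and the origin recognition gene Orc2 was joined to Nif3l1 by 6316 bp with 364 tags. From the genes that write, erase or read H3K36 methylation, 28 found and 25 with a control peak, only Kdm2b, an H3K36 demethylase gene, was bridged, by 240 bp of a 4627 bp peak that held 2669 bp of Rnf34. Hnrnpm was joined to Pram1, Nup54 to Art3, Ndufb9 to Mtss1 and Mrps22 to Copb2. Lists of naive pluripotency, translation, aminoacyl-tRNA synthetase, RNA polymerase and elongation, and cell cycle genes had no member in a bridged pair. Of 30 naive pluripotency genes, 27 had a control peak. With only 4.83% of all marked genes over 5 kb in bridged pairs, a list of such size can hold none. The lack of members was not tested.

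MicroRNA hairpins lay under 7 of the bridging peaks, 8 hairpins in all. Mir126a and Mir126b lay under the peak of Egfl7 and Agpat2, and Mir324 under that of Dvl2 and Acadvl, which was also overlapped in knockdown. The pairs were spread over all 19 autosomes, from 2 on chromosome 18 and 3 on chromosome 3 to 28 on chromosome 7 and 29 on chromosome 11. As a share of close pairs this was 1.26% (chromosome 8) to 6.30% (chromosome 4).

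The length limit of 10 kb passed through a continuous range. Just inside it were the peaks of Kcnj14 and Grwd1 (9993 bp, 699 tags), Kat2b and Sgo1 (9935 bp, 568 tags) and Ergic3 and Fer1l4 (9858 bp, 619 tags). Just outside were those of Golga2 and Dnm1 (10070 bp, 597 tags), Clstn1 and Pik3cd (10089 bp, 593 tags) and Pxk and Pdhb (10096 bp, 622 tags). None of these 6 was overlapped by a knockdown peak. A further 127 pairs were bridged by longer control peaks, with a median length of 14265 bp, and 27 of those peaks were overlapped.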

How the data were processed

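H3K36me3 ChIP and input libraries of knockdown and control mouse embryonic stem cells were grouped by the treatment, genotype and antibody in the labels. Per the submitters' processing notes, FastQC 0.11.5, Bowtie 1.1.2 and build mm10 were used. Peak calling used MACS 1.4.2, per the file headers, on merged replicates against merged inputs, with a p cutoff of 1e-05, a fragment length of 294 bp, 1 tag kept per position, and the larger data set scaled to the smaller. The deposited tables hold, for each peak, a raw count of ChIP tags. A score per peak, deposited by the authors, is the caller's p-value as −log10 multiplied by 10. The authors' fold enrichment is the ratio of ChIP tags to the local background, and their FDR is an empirical value in percent. The deposited BED lists equal the tables limited to an FDR of at most 5%, with 2961 peaks in knockdown and 30595 in control. ChIP libraries held 38670982 tags in knockdown and 42509111 in control, and inputs 37471825 and 39607031. A shallower library can yield fewer called peaks, merged replicates allow no replicate error, and the handling of multiply mapping reads is not stated in the labels or headers.

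Gene spans came from a RefSeq table of GRCm38.p6, with 16092 protein-coding genes over 5 kb on chromosomes 1 to 19. Strand and promoter sequence came from RefSeq's promoter table, which matched 16456 of 20661 protein-coding genes of any length. Overlap meant 1 shared base. Where a peak touched more than 2 genes, the pair with the smallest gap was used. The overlap, gap and coverage code was tested on simulated intervals. Python 3.11.15 with pandas 2.3.3, numpy 2.4.6 and scipy 1.17.1 was used, and figures were drawn with matplotlib 3.10.9. Bridging peaks and gene lists were chosen with earlier results of these data known. Named peaks were chosen by rule, leaving out 7 pairs with Gm or Rik symbols. They are the bridging peaks with the most bases under knockdown peaks, the 10 top scores without knockdown overlap, and the 5 widest and 5 narrowest gaps. Also named are the 2 with the most tags per kb of each orientation and the peaks next to the length limit. The densest pair is named for each of the 8 gene lists, out of 13, that had a gene in a bridged pair. Some named items are not reported here. Other pairs were named after their values were seen. Alternatives varied gene length, shared bases, peak length, score, FDR, overlap rule and gap limit.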

Additional observations from a re-analysis of the deposited data

How the results depend on the processing

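The 213 bridging peaks became 359 with genes over 2 kb, 105 with genes over 10 kb and 340 with no limit on peak length, and stayed between 163 and 213 under the other alternatives. The share overlapped by a knockdown peak, 5.16%, became 11.2% (38 of 340) with no limit on peak length, 1.41% with only knockdown peaks of score 100 or more, and 0% where at least 50% of the control peak, or 50% of each peak, had to be shared. It ran from 5.16% to 6.13% under the others. The median gap of 558 bp was 747 bp with genes over 10 kb and 446 to 566 bp otherwise. The convergent share stayed between 79.5% and 85.7% in all 8 alternatives. Close pairs spanned by a control peak of any length, 6.35%, became 9.64% at gaps up to 5000 bp, 16.2% at gaps up to 2000 bp, and 3.98% with peaks of 10 kb or less. The set of genes with a curated transcript, added after seeing the data, left 211 peaks. No paired analysis was possible because the authors merged the replicates before calling peaks, and replicates could not be left out for the same reason. The cause of the moved values was not tested, other than that wider rules admit more pairs.

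A shallower knockdown library, 1 list per condition and a caller threshold limit what an uncalled peak can show: it is not detectable at this depth, not absent. Strand was missing for 1 or both genes of 59 pairs. A peak reaches a gene by 1 base at the precision of a caller that extends tags to 294 bp.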
